A study of Mus musculus with 17 samples.

Results

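RNA from the frontal cortex of mice with a miR-211 transgene switched on in forebrain neurons was compared with RNA from mice that carried only the driver of that transgene. The comparison held 12 libraries of the 17 deposited files, which represent 16 distinct libraries. They were chosen by their labels: Ct replicates 1 to 6 (genotype CamK) and dTg replicates 2 to 7 (genotype dTg-211). All came from male mice of the inbred FVB/N strain without doxycycline, and no age is given in the labels. The file labelled dTg replicate 1 was left out because all of its 46073 values are identical to those of the file labelled NTg replicate 1 (genotype PTRE-miR-211, no driver), and because it is rich in RNA of the cerebellum. In the system used, the CamK driver makes a transactivator protein in excitatory forebrain neurons, and the transactivator switches on the miR-211 transgene unless doxycycline is present. Ct mice therefore share the driver with dTg mice, and the miR-211 transgene without driver is the label of 1 file. A further 3 libraries, dTgDox, carried both transgenes and received doxycycline over 4 days, and their values are set beside some results. These 3 libraries also differed from both groups in hippocampal markers and in App, and an effect of doxycycline was not tested. Replicates are separate samples in the labels, which do not say that each is a different animal, so p-values measure the spread between these samples. The file headers give dTg replicates 5, 6 and 7 names that share a number, with a meaning that is not stated.

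miR-211 is a microRNA whose gene lies in an intron of Trpm1, an ion channel gene of retina and pigment cells. Like other microRNAs it is loaded into Argonaute proteins and pairs through its seed, bases 2 to 8, with matching sites in 3'UTRs, which usually lowers the amount or the translation of the transcript slightly. In the brain it has been linked to acetylcholine signalling, and the series title names cholinergic imbalance and epileptiform activity. Of the mouse microRNAs in RefSeq (GRCm38.p6), 3 share this seed, so a transcript with a seed match can answer to any of them. Their mature sequences are shown with the seed in capitals, because the seed defines the sites counted later.
miR-211-5p: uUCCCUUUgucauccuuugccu
miR-204-5p: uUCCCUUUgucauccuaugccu
miR-7670-3p: uUCCCUUUcugaauaucuguaga
The site that pairs with the seed and carries an A opposite base 1, called an 8mer, reads AAAGGGAA on the transcript. It is shown in capitals, with the flanking bases of GRCm38 in the transcript's sense, in 3 genes reported as miR-211 targets whose values follow.
Bcl2 (chr1:106543053-106543060, minus strand): tactgccAAAGGGAAatatcat
Tgfbr2 (chr9:116087873-116087880, minus strand): tctacatAAAGGGAAagtttta
Sirt1 (chr10:63320304-63320311, minus strand): ttaatgtAAAGGGAAcagctta

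The deposited values, taken as FPKM (fragments scaled to transcript length and library size), are relative levels. The depth of the 12 libraries relative to Ct replicate 1 was estimated at 0.789 to 1.11. The lowest estimate, in dTg replicate 5, rested on a peak of 26 among 835 genes of low value. The number of genes at 1 FPKM or more was 15762 to 16077. Over genes, log2 values correlated at 0.953 to 0.963 within Ct, 0.956 to 0.964 within dTg and 0.953 to 0.968 between the groups. Genes within a library are not independent, so these values only describe similarity. Camk2a (chromosome 18, 60925618 to 60988152), a synaptic kinase gene that marks excitatory forebrain neurons, had 602 to 917 FPKM (median 746) in Ct and 594 to 1104 FPKM (median 771) in dTg.

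The amount of miR-211 could not be read from these libraries, which were made from polyadenylated RNA and do not hold mature microRNAs. Mir211 (chromosome 7, 64205806 to 64205911), listed as a gene, was at 21.6 FPKM in dTg replicate 2, at 24.9 FPKM in dTg replicate 5 and at 0 in the other 10 libraries. Its host gene Trpm1 (chromosome 7, 64153835 to 64269775) had 0.0375 to 0.398 FPKM (median 0.189) in Ct and 0.135 to 0.339 FPKM (median 0.227) in dTg. Neither passed the filter on low values, so neither was tested.

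The libraries labelled Ct replicate 2 and dTg replicate 7 stood apart at a place linked to the driver. A widely used Camk2a driver line carries its insertion on chromosome 12, with a deletion over the neighbouring genes Vipr2, Wdr60, Esyt2, Ncapg2 and Ptprn2, and the labels do not say whether the present line is that one. Esyt2 (chromosome 12, 116281196 to 116391050), a lipid-transfer protein, had 9.99 FPKM in the library labelled Ct replicate 2 and 12.4 in the library labelled dTg replicate 7, and 5.16 to 6.13 FPKM in the other 10. Ptprn2 (chromosome 12, 116485720 to 117276849), a protein of secretory vesicles, had 90.3 and 98.2 FPKM in those libraries and 38.5 to 49.6 in the other 10. The ratio of the mean of the 2 libraries to that of the 10 was 1.98 for Esyt2, 1.96 for the cilium gene Wdr60, 1.93 for the chromosome condensation gene Ncapg2 and 2.13 for Ptprn2. Vipr2 (chromosome 12, 116077726 to 116146261), a receptor for the peptide VIP, went the other way, at 1.37 and 0.304 FPKM against 1.90 to 12.8. The 3 dTgDox libraries had 12, 10.1 and 12 FPKM of Esyt2 and 0.268, 0.217 and 0.838 of Vipr2, on the side of these 2 libraries in both genes. What this says about the driver in each library was not tested, and results are given with both libraries and, for the counts, without them.

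**Figure D1:**
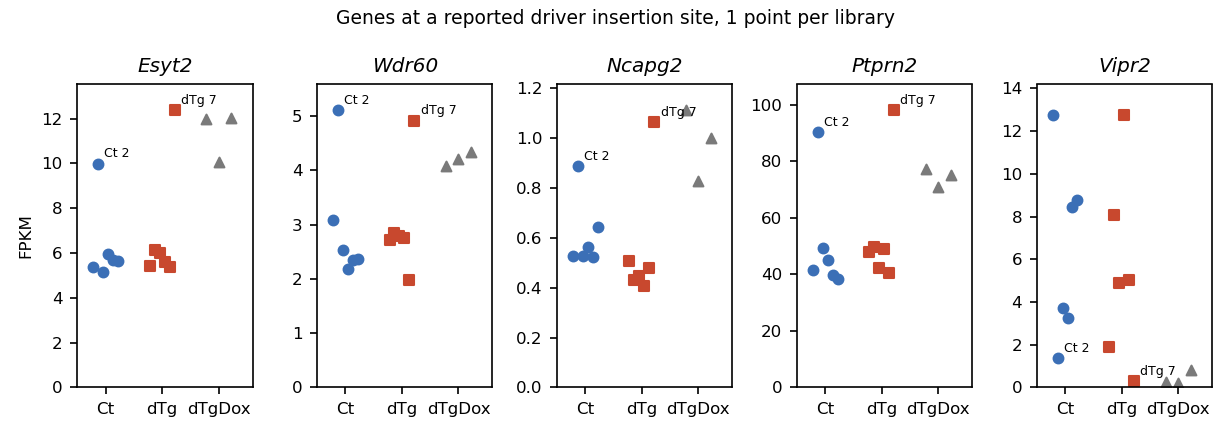
FPKM of the 5 genes at a reported driver insertion site, 1 point per library, by group (Ct n = 6, dTg n = 6, dTgDox n = 3), each axis starting at 0. Ct replicate 2 and dTg replicate 7 lie with the dTgDox libraries, above the other 10 in Esyt2, Wdr60, Ncapg2 and Ptprn2 and below them in Vipr2.

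The 12 pieces of tissue differed in how much of the neighbouring brain regions they held. The summed level of 10 olfactory bulb markers was 335, 193 and 108 FPKM in Ct replicates 1, 5 and 2 and 192 in dTg replicate 3, against 17.5 to 49 in the other 8 libraries. Doc2g, a calcium-binding protein of mitral cells, had 1.71 to 91.7 FPKM (median 15.8) in Ct and 1.64 to 47 FPKM (median 2.53) in dTg, and S100a5, a calcium-binding protein of olfactory neurons, had 0 to 101 FPKM (median 3.52) in Ct and 0 to 81.2 FPKM (median 0) in dTg. The 10 striatal markers summed to 710.3 and 624 FPKM in Ct replicates 6 and 4 and to 404, 395 and 247 in dTg replicates 6, 2 and 3, against 119 to 156 in the other 7. The adenosine receptor gene Adora2a of striatal neurons had 0.665 to 29.5 FPKM (median 1.97) in Ct and 0.838 to 14.8 FPKM (median 4.2) in dTg. All 9 tested olfactory bulb markers had a lower mean in dTg, with a median difference of -0.82 on the log2 scale, and 8 of 10 striatal markers did, with a median of -0.14. Of these genes 0 passed at an unadjusted limma p under 0.05, and the groups overlapped in each. The mean log2 levels of the 2 lists served as covariates in a second fit, which brings the medians of the same markers near 0 by construction (-0.0058 and 0.011).

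**Figure D2:**
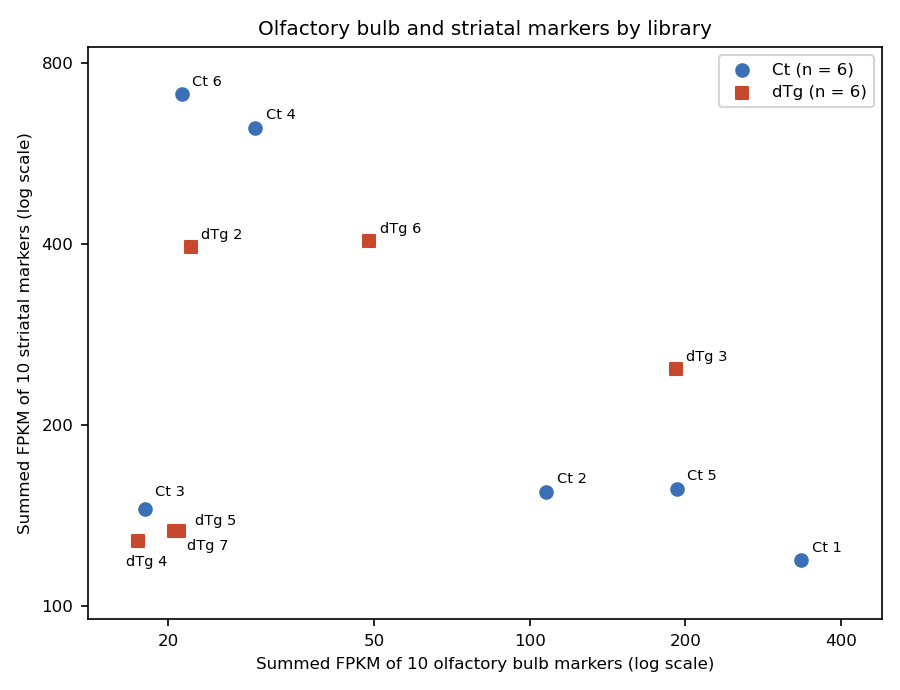
Summed FPKM of 10 olfactory bulb markers (horizontal, log scale) and 10 striatal markers (vertical, log scale), 1 point per library (Ct n = 6, dTg n = 6). Ct replicates 1, 2 and 5 and dTg replicate 3 hold at least 108 FPKM of olfactory bulb markers, and Ct replicates 4 and 6 the most of striatal markers.

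Traces of other tissues also differed between libraries. Transthyretin, Ttr, the main product of choroid plexus, had 86.7 FPKM in Ct replicate 6 and 60.7, 88.2 and 120.0 in dTg replicates 2, 4 and 6, against 0.407 to 3.56 elsewhere. Gabra6, the GABA receptor subunit of cerebellar granule cells, was at 2.58 and 4.1 FPKM in dTg replicates 4 and 7 and at no more than 0.316 in the other 10. The Purkinje cell gene Car8 had 2.51 to 3.7 FPKM (median 3.45) in Ct and 3.31 to 7.47 FPKM (median 4.05) in dTg, a difference of 0.42 (SE 0.17), and Pcp2, another, a difference of 0.49 (SE 0.24). Among hippocampal markers, C1ql2, a synapse organiser of dentate granule cells, had 0.152 to 1.03 FPKM (median 0.213) in Ct and 0.157 to 1.36 FPKM (median 0.371) in dTg, and 40.6, 17.4 and 34 FPKM in the 3 dTgDox libraries. Fibcd1 of CA1 pyramidal cells had 1.78 to 3.11 FPKM (median 2.44) in Ct and 1.43 to 2.65 FPKM (median 2.19) in dTg, and 25.1, 23.4 and 25.9 FPKM in the 3 dTgDox libraries, so dTgDox values come from tissue with more hippocampal RNA than either group. In bulk tissue, fewer cells of a type and less RNA per cell cannot be told apart.

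No gene passed the threshold between dTg and Ct. Of 18726 genes tested with limma, 0 (0%) had an adjusted p under 0.05, and the smallest adjusted p was 0.259. At an unadjusted p under 0.05 there were 542 genes, or 2.89% of those tested, with 311 higher in dTg (1.66%) and 231 lower (1.23%). About 936 would be expected at that p by chance, so there was no excess of small p-values. At an unadjusted p under 0.01 there were 95, or 0.507%. Of all tested genes 9742 (52.0%) were lower in mean in dTg and the rest higher, and counts within gene lists stand beside these shares. The median 95% interval reached 0.225 to each side on the log2 scale, and 200 genes had a fitted difference of more than 1 in size, of which 105 had a mean log2 level of at least 1. With the 2 region covariates the count was again 0, with 571 genes (3.05%) at an unadjusted p under 0.05 and 91 (0.486%) under 0.01. Without the libraries labelled Ct replicate 2 and dTg replicate 7 it was 1 of 18496 (0.00541%), the small RNA gene Gm24407, with 604 (3.27%) at the unadjusted level. Gm24407 was at 0 in every Ct library and entered the test through dTg alone. In dTg it was at 0 in replicate 7 only, a library which that fit leaves out. Among the 3 Ct and 5 dTg libraries whose header numbers begin with 6, a choice made after seeing the data, the count was 0, with 732 (4.01%).

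In 25 genes (0.134%) all 6 dTg libraries lay on one side of all 6 Ct libraries, 15 of them higher in dTg and 10 lower. How many genes would do so without any difference between the groups was not computed. Of the 25, 16 are protein-coding and 6 (24.0%) lie on chromosome 11, which holds 7.87% of the tested genes. Gm26244, Gimap5, Gm11532, Gsto2, Pkn3 and Wdr95, all higher in dTg, were under 0.5 FPKM in every Ct library. They passed the filter through dTg alone. The count of 25, its split by direction and the chromosome 11 share therefore rest partly on the filter. Every adjusted p after the smallest was 0.964 or more, so the differences that follow are the sizes and spreads of genes that did not pass. They were chosen among genes whose log2 values averaged 1 or more and whose symbol is informative, which leaves out predicted genes and clone or accession names. The 12 with the smallest p-values in each direction were taken, and also those with the widest gap between groups that did not overlap, which is how Rpusd2 comes to be described.

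Among genes higher in dTg, Apobec3 (chromosome 15, 79891659 to 79915906), an enzyme that mutates the DNA of retroviruses, came first. Its levels were 1.32 to 3.04 FPKM (median 2.17) in Ct and 3.15 to 5.12 FPKM (median 4.34) in dTg. The highest Ct library lay just below the lowest dTg library. The difference was 0.82 (SE 0.15), with a limma adjusted p of 0.964, and it was 0.87 with the region covariates. The values of the doxycycline group were 1.97, 1.36 and 2.01 FPKM in the 3 dTgDox libraries, within the Ct range. Apobec3 overlaps Cbx7 on the other strand, and without strand information reads of the 2 genes cannot be told apart.

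Cspp1 (chromosome 1, 10037987 to 10136768), a protein of centrosomes and cilia, had 12.9 to 18.1 FPKM (median 15) in Ct and 18.5 to 22.5 FPKM (median 19.2) in dTg, also without overlap, and a difference of 0.38 (SE 0.10). Unc93b1 (chromosome 19, 3935186 to 3949340), which carries nucleic acid receptors of innate immunity to endosomes, had 6.93 to 8.58 FPKM (median 7.3) in Ct and 8.52 to 10.03 FPKM (median 8.82) in dTg, with the groups touching at a difference of 0.24 (SE 0.069). Eftud2 (chromosome 11, 102838473 to 102880985), a GTPase of the spliceosome, had 40.7 to 48.6 FPKM (median 46) in Ct and 46.9 to 69.9 FPKM (median 56.5) in dTg and a difference of 0.32 (SE 0.094). The glutathione transferase gene Gstt1 had 7.68 to 11.2 FPKM (median 10.3) in Ct and 10.8 to 15.2 FPKM (median 12) in dTg, a difference of 0.31 (SE 0.10). In Unc93b1, Eftud2 and Gstt1 at least 1 library of each group lay within the range of the other.

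A further gene, Lbhd1, had 4.35 to 7.69 FPKM (median 6.45) in Ct and 7.65 to 12.4 FPKM (median 10.3) in dTg, with a difference of 0.65 (SE 0.14). Tmem254c, 1 of several near-identical copies whose reads may be split unevenly, had a difference of 0.67 (SE 0.20). Mamstr, a cofactor of the muscle and neuronal transcription factor MEF2, had a difference of 0.56 (SE 0.16). The differences of Pip5kl1, a relative of the lipid kinases that make PIP2, and of Ranbp3l were 0.43 (SE 0.11) and 0.43 (SE 0.14). With the region covariates, the higher genes described here had differences between 0.26 and 0.87. On the genome Lbhd1 shares bases with 3 annotated genes and Cspp1 with 2, Cops5 among the latter. Eftud2 and Pip5kl1 each share bases with a gene on the other strand. The reads of these genes may therefore not be theirs alone.

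Among genes lower in dTg, Pold2 (chromosome 11, 5872180 to 5878292), a subunit of DNA polymerase delta, had 10.1 to 14.4 FPKM (median 12.1) in Ct and 7.33 to 9.78 FPKM (median 9.37) in dTg. The groups did not overlap, and the difference was -0.41 (SE 0.10). Rpa3, a subunit of the single-strand DNA binding complex RPA, had 11.1 to 12.6 FPKM (median 11.9) in Ct and 9.61 to 11 FPKM (median 10.3) in dTg, a difference of -0.20 (SE 0.057). Exosc2, a subunit of the RNA exosome, had 10.9 to 12.1 FPKM (median 11.2) in Ct and 9.28 to 10.5 FPKM (median 10.01) in dTg, a difference of -0.17 (SE 0.051). Cstf2t, an RNA-binding subunit of the factor that stimulates pre-mRNA cleavage before the polyA tail is added, had 28.8 to 30.6 FPKM (median 30.1) in Ct and 26.5 to 28.3 FPKM (median 27.3) in dTg. Its difference of -0.13 (SE 0.038) was the smallest in size of the lower genes described here, and its groups did not overlap. Rpusd2, a pseudouridine synthase, had 2.06 to 2.26 FPKM (median 2.1) in Ct and 1.68 to 2.04 FPKM (median 1.77) in dTg, a difference of -0.20 (SE 0.068).

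Mllt10, a partner of the histone methyltransferase DOT1L, had 20.2 to 28.2 FPKM (median 22) in Ct and 13.3 to 22.5 FPKM (median 14.6) in dTg, and its difference of -0.49 (SE 0.13) was the largest in size of the lower genes described here. In Mllt10 dTg replicate 3 lay within the Ct range. The CREB-family transcription factor Atf1 had 6.8 to 9.57 FPKM (median 8.09) in Ct and 5.44 to 7.28 FPKM (median 6.45) in dTg, a difference of -0.32 (SE 0.093). Mthfd2, an enzyme of mitochondrial folate metabolism, had 3.51 to 4.65 FPKM (median 4.26) in Ct and 2.93 to 3.67 FPKM (median 3.36) in dTg, a difference of -0.28 (SE 0.080). Pcdhga12, a clustered protocadherin that gives neurons a surface identity, had 5.23 to 7.09 FPKM (median 5.67) in Ct and 4.34 to 5.14 FPKM (median 4.77) in dTg, without overlap and with a difference of -0.26 (SE 0.078). On the genome Pcdhga12 shares bases with 28 annotated genes, most of them other protocadherins of its cluster, and Mllt10 with 6. Exosc2, Cstf2t and Sap30bp share bases with genes on the other strand. The reads of all these genes may therefore not be theirs alone. Sap30bp and the pseudogene Pabpc1l2a-ps had differences of -0.24 (SE 0.066) and -0.28 (SE 0.083).

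**Figure D3:**
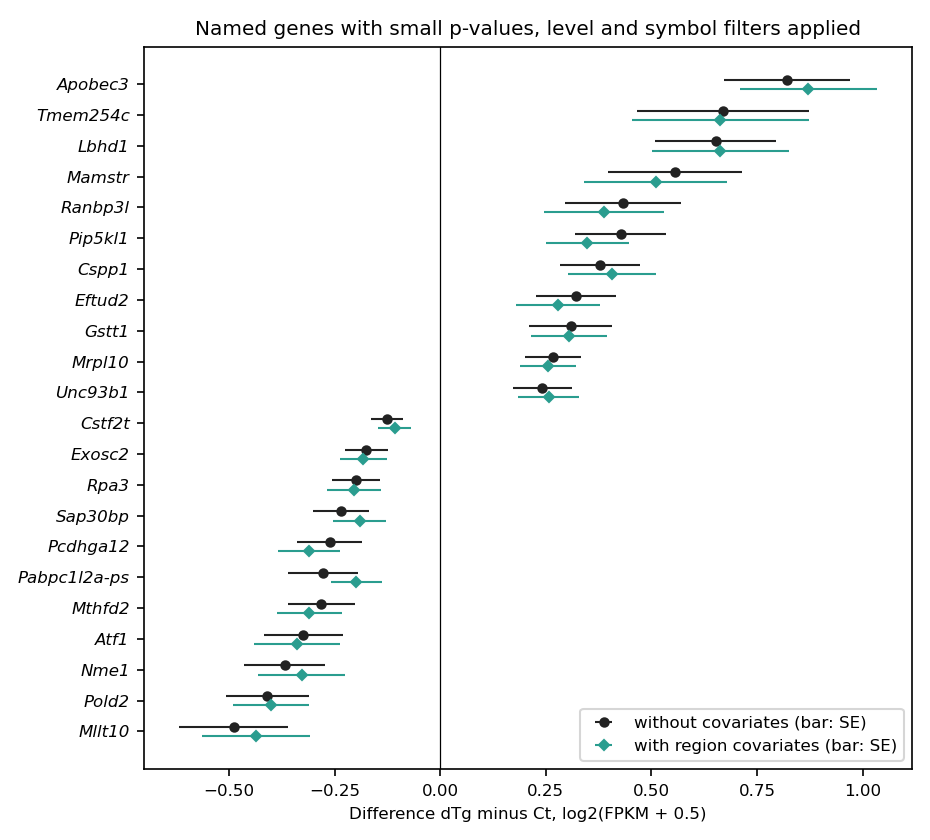
Fitted difference dTg minus Ct on log2(FPKM + 0.5) for 22 of the 24 genes, 12 in each direction, with the smallest p-values among those with a mean log2 value of 1 or more and an informative symbol, without covariates (circles) and with the olfactory bulb and striatal covariates (diamonds); bars are SEs. Covariates moved none of the 22 differences across 0, and Apobec3 had the largest, at 0.82 without and 0.87 with them.

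The window of the genome with the most genes of small p-value lay on chromosome 11, and the stretch around it was chosen after its values were seen. In windows of 5 Mb, the one from 95 to 100 Mb of chromosome 11 (GRCm38) held 8 of 111 tested genes with a limma p under 0.01 (7.21%), against 0.507% of all genes. The next highest count was 4 of 31, a larger share (12.9%), at 20 to 25 Mb of chromosome 12, and 468 windows had 0. From 90 to 100 Mb of chromosome 11 it was 10 of 143 (6.99%) at a p under 0.01 and 22 (15.4%) at a p under 0.05, against 0.457% and 2.80% of the genes elsewhere. Of the 22, 11 were higher and 11 lower in dTg, and the median difference of all 143 was -0.011. Among the higher ones, Gm11534 and Gm27326 were at 0 in every Ct library and passed the filter through dTg alone. Gm11532, also higher, passed it through dTg alone, and Gm9796, which was lower, through Ct alone. Both are among the 10 at a p under 0.01, so that count rests partly on the filter. On the rest of chromosome 11 the count at a p under 0.01 was 8 of 1331 (0.601%). With the region covariates 9 genes of the stretch had a p under 0.01, and without Ct replicate 2 and dTg replicate 7 it was 8 of 141 (5.67%). The count was 15 of 141 (10.6%) without dTg replicate 6 and 6 of 135 (4.44%) in the libraries whose header numbers begin with 6. With protein-coding genes alone it was 6 of 115 (5.22%). None of these genes passed after adjustment.

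Neighbours in the stretch differed in opposite directions. Nme1 (chromosome 11, 93956979 to 93968521), a nucleoside diphosphate kinase, had 102 to 119 FPKM (median 114) in Ct and 64.4 to 99.8 FPKM (median 92.2) in dTg, and 99.2, 101 and 102 FPKM in the 3 dTgDox libraries. Its groups did not overlap, at a difference of -0.37 (SE 0.10). The adjacent Nme2, the sister kinase, had 29.4 ± 2.56 FPKM in Ct and 25.5 ± 3.32 in dTg (SD, n = 6 each), a difference of -0.20 (SE 0.085). Both are spanned by the readthrough gene Gm20390, with a difference of 0.19 (SE 0.069), so the split of reads among the 3 is uncertain. The transcript B230206L02Rik (chromosome 11, 94133485 to 94155776) had 2.47 to 4.65 FPKM (median 3.49) in Ct and 4.35 to 8.28 FPKM (median 6.04) in dTg, and 2.71, 3.23 and 2.43 FPKM in the 3 dTgDox libraries. Only dTg replicate 6, at 4.35 FPKM, lay below the highest Ct library, and the difference was 0.72 (SE 0.14). Utp18, a factor of ribosome assembly just before Nme2 on the map, had a difference of 0.30 (SE 0.10), and 7.82, 9.15 and 8.24 FPKM in the 3 dTgDox libraries.

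Farther along, Phb, which encodes prohibitin of the inner mitochondrial membrane, had 41.8 to 46.4 FPKM (median 44.1) in Ct and 35.3 to 43 FPKM (median 38.9) in dTg, a difference of -0.18 (SE 0.054), and 60.3, 58.4 and 54.4 FPKM in the 3 dTgDox libraries. The noncoding Gm9796 after it on the map had 0.344 to 0.941 FPKM (median 0.535) in Ct. In dTg it had 0.018 to 0.448 FPKM (median 0.105), a difference of -0.69 (SE 0.18), and it passed the filter through Ct alone. Skap1 (chromosome 11, 96464593 to 96759130), an adaptor of T-cell receptor signalling, had 0.915 to 1.69 FPKM (median 1.14) in Ct and 0.656 to 0.861 FPKM (median 0.787) in dTg, without overlap, a difference of -0.41 (SE 0.12), and 1.44, 1.57 and 1.18 FPKM in the 3 dTgDox libraries. D030028A08Rik (chromosome 11, 96916270 to 96965060), a transcript that overlaps several genes on the other strand, so that their reads cannot be told apart without strand, had 2.08 to 3.46 FPKM (median 2.89) in Ct and 0.681 to 1.97 FPKM (median 1.66) in dTg, without overlap and with a difference of -0.81 (SE 0.20).

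Mrpl10 (chromosome 11, 97041560 to 97049213), a protein of the mitochondrial ribosome, had 23.2 to 30.9 FPKM (median 28.6) in Ct and 31.7 to 35.9 FPKM (median 33.1) in dTg. Its groups did not overlap, at a difference of 0.27 (SE 0.066), and it had 32.1, 34.4 and 28.7 FPKM in the 3 dTgDox libraries. Gm11574, which overlaps Mrpl10 on the other strand, had a difference of -0.29 (SE 0.10). Gm11532, a transcript opposite the transcription factor gene Sp6, had 0.0684 to 0.172 FPKM (median 0.129) in Ct. In dTg it had 0.252 to 1.11 FPKM (median 0.479), without overlap, a difference of 0.73 (SE 0.17). It passed the filter through dTg alone. Its levels were 0.197, 0.143 and 0.12 FPKM in the 3 dTgDox libraries. The transcript Gm11632, inside Fbxl20, had 0.0921 to 0.924 FPKM (median 0.421) in Ct and 0.373 to 1.91 FPKM (median 1.64) in dTg and a difference of 1.0 (SE 0.30). Smaller differences were those of the pyruvate dehydrogenase kinase gene Pdk2, at 0.15 (SE 0.059), the ubiquitin-conjugating enzyme gene Ube2z, at -0.11 (SE 0.045), the transcription factor gene Sp2, at -0.22 (SE 0.086), the mitochondrial ribosome gene Mrpl27, at -0.26 (SE 0.10), and the Polycomb gene Pcgf2, at 0.25 (SE 0.11). The dTgDox values come from libraries with more hippocampal RNA, and the part of tissue content in them was not tested.

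**Figure D4:**
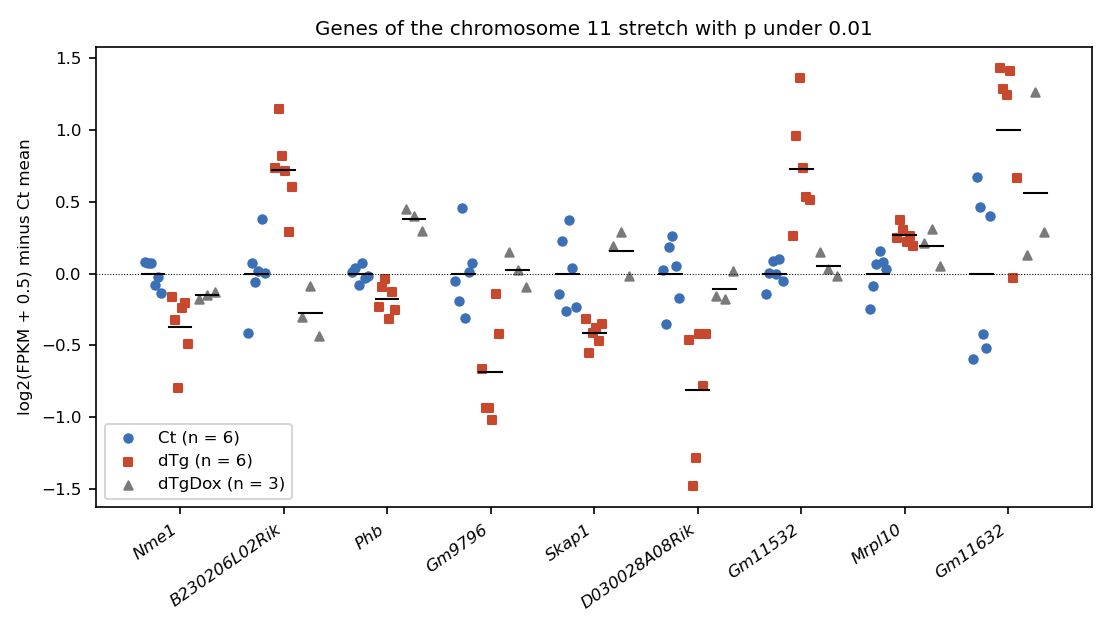
log2(FPKM + 0.5) minus the Ct mean for 9 of the 10 genes between 90 and 100 Mb of chromosome 11 with an unadjusted limma p under 0.01, in map order, 1 point per library (Ct n = 6, dTg n = 6, dTgDox n = 3); short lines are group means. Means of dTg lie on both sides of 0, from -0.81 for D030028A08Rik to 1.0 for Gm11632.

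On the same chromosome, outside the stretch, Pold2 lies near Camk2b (chromosome 11, 5969644 to 6066362), the beta subunit of the synaptic kinase CaMKII. Camk2b had 200.3 to 236 FPKM (median 213) in Ct and 169 to 207 FPKM (median 190.2) in dTg, a difference of -0.17 (SE 0.058). Of the 14 tested Camk2 and calmodulin kinase genes it was the 1 with a p under 0.05, and the list median was -0.014. Camk1d had a difference of -0.093 (SE 0.074) and Camk2a, with overlapping groups, 0.056 (SE 0.15), which turned to -0.091 with the region covariates. AA465934, a noncoding transcript, had 5.21 to 93.5 FPKM (median 28.3) in Ct and 40.5 to 99.6 FPKM (median 89.7) in dTg. Ct replicates 1, 2 and 6 and all 3 dTgDox libraries were at 5.21 to 8.76 FPKM and the other 9 at 40.5 to 99.6, and the difference was 1.72 (SE 0.78).

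The smallest p-value of all belonged to a small noncoding gene with exact zeros in Ct. Gm26244 on chromosome 18, annotated as a small nuclear RNA, had a value of 0 in each Ct library and of 1.26, 2.49, 2.56, 2.76, 16.4 and 2.58 FPKM in dTg replicates 2 to 7, with a limma adjusted p of 0.259. On chromosome 5, the small nuclear RNA genes Gm24265 and Gm24407 reached 50.7 and 33.8 FPKM in dTg replicate 6. Gm24265 was above 0 in 1 Ct library, at 5.1 FPKM, while Gm24407 was at 0 in all 6 and in dTg replicate 7. Gm26244 had 6.43, 2.2 and 1.21 FPKM in the 3 dTgDox libraries. No fold is given against a group listed at 0. Of 112 tested small nuclear RNA genes 11 (9.82%) had a p under 0.05, 9 of them higher, and of 84 genes annotated as miscellaneous small RNA 15 (17.9%) did, 12 of them higher, against 319 of 14341 protein-coding genes (2.22%). The filter asked for 0.5 FPKM in any 3 libraries. Gm26244, Gm24407, Gm22317, Gm22295, Gm25583 and Gm22753, at 0 in every Ct library, thus entered the test through dTg alone. Gm22208, at 0 in every dTg library, entered through Ct alone. The shares are therefore not a result about these classes of RNA. The summed FPKM of the 112 was 498 to 905 in Ct and 538 to 914.5 in dTg, and dTg replicate 6 was the highest library for 27 of them. These transcripts are short, and many lack the polyA tail on which the libraries were selected. AW495222, among the 3 smallest p-values, is antisense to Dmgdh, and without strand their reads cannot be told apart. It had 0.777 to 1.72 FPKM (median 1.14) in Ct and 1.71 to 3.13 FPKM (median 2.6) in dTg, a difference of 0.82 (SE 0.16).

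Genes reported as targets of miR-211 held no gene that passed. Of 21 tested, 0 had a p under 0.05, 8 were higher and 13 lower, and their median difference was -0.011 (all genes: -0.0046). Bcl2 (chromosome 1, 106538178 to 106714274), the survival factor whose 8mer site is printed above, had 2.68 to 3.79 FPKM (median 3.08) in Ct and 2.24 to 3.22 FPKM (median 2.62) in dTg. Its difference of -0.19 (SE 0.10) was the nearest to the threshold among them, with an unadjusted limma p of 0.0876 and a 95% interval of -0.42 to 0.033, and it was -0.11 with the region covariates. Tgfbr2 (chromosome 9, 116084293 to 116175360), a receptor of TGF-beta, had 3.44 to 4.2 FPKM (median 3.9) in Ct and 3.58 to 4.76 FPKM (median 4.08) in dTg, a difference of 0.088 (SE 0.083) with an interval of -0.091 to 0.27. Sirt1, a deacetylase with an 8mer site, had a difference of -0.077 (interval -0.26 to 0.11). Intervals of the 8mer genes Nfat5, a transcription factor of salt stress, Sox11, of neuronal development, and Kcnma1, the BK potassium channel, were -0.13 to 0.38, -0.47 to 0.18 and -0.30 to 0.23. Igf2r, a lysosomal sorting receptor in which an 8mer was also found, had the narrowest of these, -0.16 to 0.15, and Pou3f2, a cortical transcription factor, had -0.20 to 0.17. Pdk4, a mitochondrial kinase with a 7mer, had 2.78 to 3.76 FPKM (median 3.14) in Ct and 2.96 to 4.39 FPKM (median 3.43) in dTg, a difference of 0.15 (SE 0.11).

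Across the transcriptome, 3'UTRs of GENCODE M21 were searched on the transcript strand for the 8mer AAAGGGAA, the 7mers AAAGGGA (7mer-m8) and AAGGGAA (7mer-A1) and the 6mer AAGGGA. Each gene was put in the strongest class it held, since the shorter motifs lie within the longer. The 8mer was held by 1079 of the tested genes with a 3'UTR, 7.59% of them, and 8555 held none of the motifs. The median difference was -0.014 in the 8mer genes, -0.0072 in 7mer-m8 genes, -0.013 in 7mer-A1 genes, -0.012 in 6mer genes and -0.0062 in genes with no match. Of the 8mer genes 21 (1.95%) had a p under 0.05, 11 lower and 10 higher, against 198 (2.31%) of the genes without a match. The median 3'UTR was 2781 bases in the 8mer genes and 877 in those without a match, so the classes also differ in length. A match is a run of letters, not a shown site, and no class was tested against another.

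Genes of acetylcholine signalling held 0 called genes and 0 of 21 at an unadjusted p under 0.05, where 6 were higher and 15 lower in mean in dTg, with a median difference of -0.075. Chat, which makes acetylcholine, had 3.65 and 1.89 FPKM in Ct replicates 4 and 6 and 2.11 in dTg replicate 6, the libraries richest in striatal markers, and a difference of -0.17 (SE 0.55). The vesicular transporter gene Slc18a3 and the choline transporter gene Slc5a7 had differences of -0.28 and -0.17. Ache (chromosome 5, 137287519 to 137294466), the enzyme that breaks acetylcholine down, had 24.4 to 37.2 FPKM (median 29.1) in Ct and 26 to 32.1 FPKM (median 29.6) in dTg, a difference of 0.0032 (SE 0.10) whose sign turned with the region covariates (-0.024). Bche, its relative, had a difference of -0.14.

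Among receptors, Chrna7 (chromosome 7, 63098692 to 63212569), the alpha7 nicotinic subunit, had 4.91 to 7.3 FPKM (median 5.99) in Ct and 3.69 to 7.16 FPKM (median 5.94) in dTg, a difference of -0.075 (SE 0.14). Its 95% interval was -0.38 to 0.23. The main cortical nicotinic subunits Chrna4 and Chrnb2 had differences of 0.11 and -0.0073, the latter with an interval of -0.11 to 0.094. Of the muscarinic receptors, Chrm1 had 42.1 ± 5.34 FPKM in Ct and 40.8 ± 4.44 in dTg (SD, n = 6 each), and Chrm3 and Chrm4 had differences of 0.049 and 0.022. Chrm2, the autoreceptor of cholinergic terminals, had 2.75 to 8.05 FPKM (median 3.81) in Ct and 2.34 to 5.1 FPKM (median 3.06) in dTg and a difference of -0.32 (SE 0.23). Its highest Ct library was replicate 1, at 8.05 FPKM, which also held the most olfactory bulb RNA, and with the region covariates the difference was -0.076. Ly6h and Lynx1, membrane proteins that damp nicotinic receptors, had differences of 0.10 (SE 0.075) and 0.059, and the chaperone gene Ric3 -0.071.

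Genes of the TGF-beta and BMP pathways, whose receptor Tgfbr2 is a reported target, had a median difference of -0.022. Of 42 tested 17 were higher and 25 lower in mean, and 0 had an unadjusted limma p under 0.05. The ligand genes Tgfb1 and Bmp4 had differences of 0.17 and 0.15 (SE 0.12). Id1, an inhibitor of differentiation factors that BMP signals induce, had 11 to 12.6 FPKM (median 12.1) in Ct and 11.7 to 17.2 FPKM (median 13) in dTg, and its difference of 0.19 (SE 0.090) had the smallest p of the list, 0.0549 in limma before adjustment. The signal transducer gene Smad9 had 3.26 to 4.09 FPKM (median 3.68) in Ct and 2.87 to 3.68 FPKM (median 3.29) in dTg, a difference of -0.14 (SE 0.080). The activin antagonist Fst had -0.23 and the inhibitory transducer Smad6 0.11. The summed level of the list was 467 to 498 FPKM in Ct and 464 to 488 in dTg. Of 15 genes of the microRNA machinery, 0 had a p under 0.05, with a median of -0.013: Ago2, the slicing Argonaute, had a difference of -0.083 (SE 0.065) and Tarbp2, a Dicer partner, 0.053 (SE 0.060).

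Immediate-early genes, which firing neurons switch on rapidly, varied widely between libraries. Their summed level was 502 to 865 FPKM in Ct and 351 to 1398 in dTg, with dTg replicates 4 and 2 at 1398 and 1011 FPKM and dTg replicates 6 and 7 at 351 and 475. Of 26 genes 20 were higher and 6 lower in mean in dTg, 0 had a p under 0.05, and the median difference was 0.081. Fos had 25.2 ± 10.2 FPKM in Ct and 33 ± 27.8 in dTg (SD, n = 6 each) and Arc 79.1 ± 24.8 FPKM in Ct and 115 ± 94 in dTg (SD, n = 6 each). Egr1 had a difference of -0.00045 with an interval of -0.71 to 0.71. Klf4, a growth-arrest transcription factor, had 2.04 to 2.38 FPKM (median 2.12) in Ct and 1.81 to 5.2 FPKM (median 2.83) in dTg, a difference of 0.35 (SE 0.17), and Jun 0.23 (SE 0.18). The 14 late activity-response genes had a median of 0.0062. Scg2, a granin of peptide vesicles, had 63.8 to 138 FPKM (median 89.4) in Ct and 51.6 to 102 FPKM (median 64.6) in dTg and a difference of -0.37 (SE 0.21), or -0.14 with the region covariates, and the activin subunit gene Inhba -0.34 (SE 0.26).

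Ion channel and receptor genes were close to the median of all genes. Of 74 potassium channel genes 34 were higher and 40 lower in dTg, with a median of -0.0052, and 2 had a p under 0.05. Kcnd2, the A-type channel of dendrites, had 19.97 to 24.2 FPKM (median 21.7) in Ct and 16.7 to 21.5 FPKM (median 19.1) in dTg, a difference of -0.19 (SE 0.065). Kcnj4, an inward rectifier, had 63.8 to 78.1 FPKM (median 71.9) in Ct and 54.1 to 74.4 FPKM (median 62) in dTg, a difference of -0.17 (SE 0.075). The medians of 10 sodium and 17 calcium channel genes were -0.013 and -0.014, with 0 genes at a p under 0.05 in either list. Scn3b and Scn3a had differences of -0.18 (SE 0.10) and -0.14 (SE 0.11), the T-type calcium channel gene Cacna1i -0.16 (SE 0.10), and Cacna1s -0.39 (SE 0.25). Hcn4, a pacemaker channel, had 0.831 to 2.84 FPKM (median 1.41) in Ct and 0.389 to 1.93 FPKM (median 1.1) in dTg, a difference of -0.37 (SE 0.25) that was -0.10 with the region covariates, and Hcn3 had -0.084 (SE 0.16) and 0.044.

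Of 14 GABA receptor genes 2 were higher and 12 lower, with a median of -0.052, and of 12 genes for GABA synthesis and chloride transport 3 were higher and 9 lower, with a median of -0.11; 0 had a p under 0.05 in either. The receptor anchor gene Gphn had 23.5 to 25.9 FPKM (median 24.7) in Ct and 18.7 to 24.2 FPKM (median 23.8) in dTg, a difference of -0.11 (SE 0.065). The synthesis enzyme gene Gad1 had 169 to 398 FPKM (median 214) in Ct and 152 to 260.3 FPKM (median 176) in dTg. Its difference of -0.30 (SE 0.20) became -0.10 with the region covariates, and that of the vesicular transporter gene Slc32a1 moved from -0.27 (SE 0.17) to -0.14. Gabra2, a receptor subunit, varied widely in both groups, with 12.2 to 33.2 FPKM (median 21.4) in Ct and 12.6 to 41.7 FPKM (median 31.8) in dTg, a difference of 0.42 (SE 0.33), and 72.4, 53.5 and 77.4 FPKM in the 3 dTgDox libraries. Of 36 glutamate receptor genes the median was -0.018, and 1 had a p under 0.05: Grm7, a presynaptic receptor that damps release, with 15.4 to 18.9 FPKM (median 17.9) in Ct and 16.6 to 24.6 FPKM (median 20.8) in dTg and a difference of 0.22 (SE 0.10). The 20 synaptic vesicle genes had a median of -0.0023, with the active-zone genes Pclo and Rims1 at 0.12 (SE 0.11) and 0.14 (SE 0.13).

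Of 49 genes in which mutations cause epilepsy, 20 were higher and 29 lower in dTg with a median of -0.0052, and 1 had a p under 0.05. This was Pcdh19, an adhesion protein of the X chromosome, with 3.31 to 8.59 FPKM (median 5.07) in Ct and 5.08 to 9.29 FPKM (median 7.35) in dTg and a difference of 0.45 (SE 0.18). Only Ct replicate 2, at 8.59 FPKM, lay above most dTg libraries. Of 16 interneuron genes and 17 neuropeptide genes 0 had a p under 0.05. The interneuron median of -0.086 became -0.016 with the region covariates, and the neuropeptide median was -0.029. Cort, cortistatin of interneurons, had 4.29 to 7.72 FPKM (median 5.59) in Ct and 5.35 to 8.53 FPKM (median 7.25) in dTg, a difference of 0.27 (SE 0.14).

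Genes that mark cortical layers had at most 1 member each at a p under 0.05. Of 11 deep-layer genes 4 were higher and 7 lower, with a median of -0.18. Rprm, of deep cortical layers, had 29.6 to 38.1 FPKM (median 34.2) in Ct and 26.8 to 34 FPKM (median 29.9) in dTg, a difference of -0.18 (SE 0.069), and Syt6 -0.56 (SE 0.38), or -0.16 with the region covariates. Of 11 upper-layer genes 8 were higher and 3 lower, with a median of 0.083 that became -0.094. Lhx2, a patterning factor of the cortex, had 19.4 to 30.9 FPKM (median 22.4) in Ct and 22.2 to 33.7 FPKM (median 32.5) in dTg, a difference of 0.30 (SE 0.13), and Mdga1 -0.58 (SE 0.31). General excitatory genes had a median of 0.054, with Emx1 at 0.18 (SE 0.18) and Neurod2 at 0.077 (SE 0.10), and both were near 0 with the covariates (-0.0041 and -0.0030).

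All 15 myelin genes were higher in mean, with a median of 0.12, but their summed level ran from 1204 to 2638 FPKM in Ct and 1121 to 3003 in dTg, and 0 had a p under 0.05. Opalin, a protein of myelinating cells, had 3.53 to 8.66 FPKM (median 4.79) in Ct and 3.98 to 10.1 FPKM (median 7.92) in dTg, a difference of 0.41 (SE 0.25), and the lipid enzyme gene Ugt8a 0.18 (SE 0.22). All 9 precursor-cell genes were higher, with a median of 0.085 and differences of 0.15 (SE 0.12) for Bmp4 and 0.092 (SE 0.094) for Cspg4. Of 14 microglial genes 13 were higher, with a median of 0.12, and 1 had a p under 0.05. This was Aif1, the microglial calcium-binding protein Iba1, with 7.3 to 11.6 FPKM (median 10.4) in Ct and 10.1 to 16.5 FPKM (median 12.2) in dTg and a difference of 0.39 (SE 0.14). Siglech had 0.18 (SE 0.10), and Tyrobp and Spp1, from a list of genes of microglia at plaques with a median of 0.0056, had 0.15 (SE 0.10) and -0.34 (SE 0.32). Astrocyte genes had a median of 0.050, with Cldn10 at 0.11 (SE 0.093) and Gja1 at 0.064 (SE 0.076), and reactive astrocyte genes 0.057, with S1pr3 at 0.13 (SE 0.10) and Timp1 at -0.20 (SE 0.17). Genes of vessels had a median of 0.079, with Vtn at 0.18 (SE 0.11) and Flt1 at 0.12 (SE 0.11). Haemoglobin genes, a mark of blood left in the tissue, summed to 478 to 3081 FPKM in Ct and 581 to 1624 in dTg, with Alas2 at -0.24 (SE 0.34) and Hbb-bt at -0.17 (SE 0.46).

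The summed level of interferon-induced genes lay above every Ct library in 3 of the 6 dTg libraries. Of 25 genes 22 were higher in mean and 3 lower, with a median of 0.16, the highest of all lists outside region markers, and 1 had a p under 0.05. The summed level was 155, 169 and 173 FPKM in dTg replicates 2, 5 and 6, 87.5 to 102 in dTg replicates 3, 4 and 7, and 93.2 to 117 in Ct. Xaf1, a gene that promotes cell death, had 4.25 to 5.25 FPKM (median 5.06) in Ct and 4.04 to 8.99 FPKM (median 7.35) in dTg, a difference of 0.43 (SE 0.16) with dTg replicate 7 below all Ct libraries. Gbp3, an antimicrobial GTPase, had 0.26 (SE 0.13), and Isg15, a ubiquitin-like protein, 2.52 ± 0.22 FPKM in Ct and 3.6 ± 1.85 in dTg (SD, n = 6 each). Of 12 antiviral restriction genes, Apobec3 alone had a p under 0.05, and Eif2ak2, the kinase PKR, had 0.11 (SE 0.093). The dTg replicates 2, 5 and 6 did not stand apart in Apobec3, at 3.7, 4.6 and 4.08 FPKM against 5.12, 4.59 and 3.15 in the others. Of 17 genes of antigen presentation the median was 0.12; the peptide transporter gene Tap2 had 3.08 to 4.44 FPKM (median 3.59) in Ct and 3.39 to 5.16 FPKM (median 4.4) in dTg, a difference of 0.23 (SE 0.10), and H2-T22 -0.13 (SE 0.066). Complement genes had a median of 0.078, with C1qc and C1qb at 0.14 (SE 0.088) and 0.14 (SE 0.090).

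Of 19 genes of endoplasmic reticulum and amino-acid stress 18 were lower in dTg and 1 higher. Their median was -0.11, or -0.11 with the region covariates, and Mthfd2 alone had a p under 0.05. The summed level of the list was 631 to 760 FPKM in Ct and 591 to 740 in dTg, so the groups overlapped. Herpud1, which helps remove misfolded proteins, had 33.9 to 44 FPKM (median 36.5) in Ct and 31.3 to 37.2 FPKM (median 33.5) in dTg, a difference of -0.14 (SE 0.067), and the chaperone gene Hspa5 -0.26 (SE 0.15). Heat shock genes had a median of -0.026, with Hspd1 at -0.083 (SE 0.065). Of 16 glucocorticoid-induced genes 13 were lower, with a median of -0.093, and 2 had a p under 0.05 and were lower, against 52.0% of all genes lower in mean and 1.23% lower at that p. Fkbp5 (chromosome 17, 28399094 to 28517527), a co-chaperone that restrains the glucocorticoid receptor and is induced by it, had 8.29 to 11.2 FPKM (median 9.88) in Ct and 5.81 to 8.96 FPKM (median 7.55) in dTg. In Fkbp5 3 dTg libraries lay below every Ct library, and the difference was -0.37 (SE 0.12). The gene had 18.6, 17.2 and 16.9 FPKM in the 3 dTgDox libraries, above both groups. The mineralocorticoid receptor gene Nr3c2 had 8.04 to 9.62 FPKM (median 8.86) in Ct and 5.79 to 8.7 FPKM (median 7.79) in dTg, a difference of -0.23 (SE 0.10). Of 18 clock genes the median was -0.034; the repressor gene Cry1 had 5.88 to 7.72 FPKM (median 6.47) in Ct and 4.41 to 7.21 FPKM (median 5.56) in dTg and a difference of -0.22 (SE 0.10), and Nr1d1 0.16 (SE 0.11).

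Of 83 cytosolic ribosomal protein genes 71 were higher in dTg and 12 lower, by a median of 0.037, and 0 had a p under 0.05. The summed level of the list was 19520 to 23700 FPKM in Ct and 20250 to 25370 in dTg, so the groups overlapped. Rps7 and Rps18 had differences of 0.18 (SE 0.093) and -0.14 (SE 0.068). Of 83 nuclear genes of oxidative phosphorylation 27 were higher and 56 lower, with a median of -0.018. Ndufa10, a subunit of complex I, had 218 to 245 FPKM (median 234) in Ct and 184 to 232 FPKM (median 208) in dTg and a difference of -0.16 (SE 0.062), and Atp5a1 -0.070 (SE 0.037). Mitochondrially encoded genes had a median of 0.077, with mt-Nd5 at 0.15 (SE 0.10) and mt-Nd6 at 0.12 (SE 0.081). Among them, mt-Co1 was listed at 0 in dTg replicate 2 and at 14600 to 19370 FPKM in the other 11 libraries, so a value of exactly 0 in these files can be a failed estimate. Genes studied in Alzheimer and prion disease, App and Prnp, had 428 to 581 FPKM (median 472) in Ct and 438 to 581 FPKM (median 471) in dTg for App, a difference of 0.037 (SE 0.088), and 0.00066 (SE 0.072) for Prnp, both turning negative with the region covariates (-0.038 and -0.033). In the 3 dTgDox libraries App was at 1268, 961 and 904 FPKM, above both groups. The list of genes of microglia at plaques summed to 2363, 1952 and 2099 FPKM there, against 1375 to 1849 in Ct and 1417 to 1670 in dTg. The cause of these dTgDox values was not tested.

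**Figure D5:**
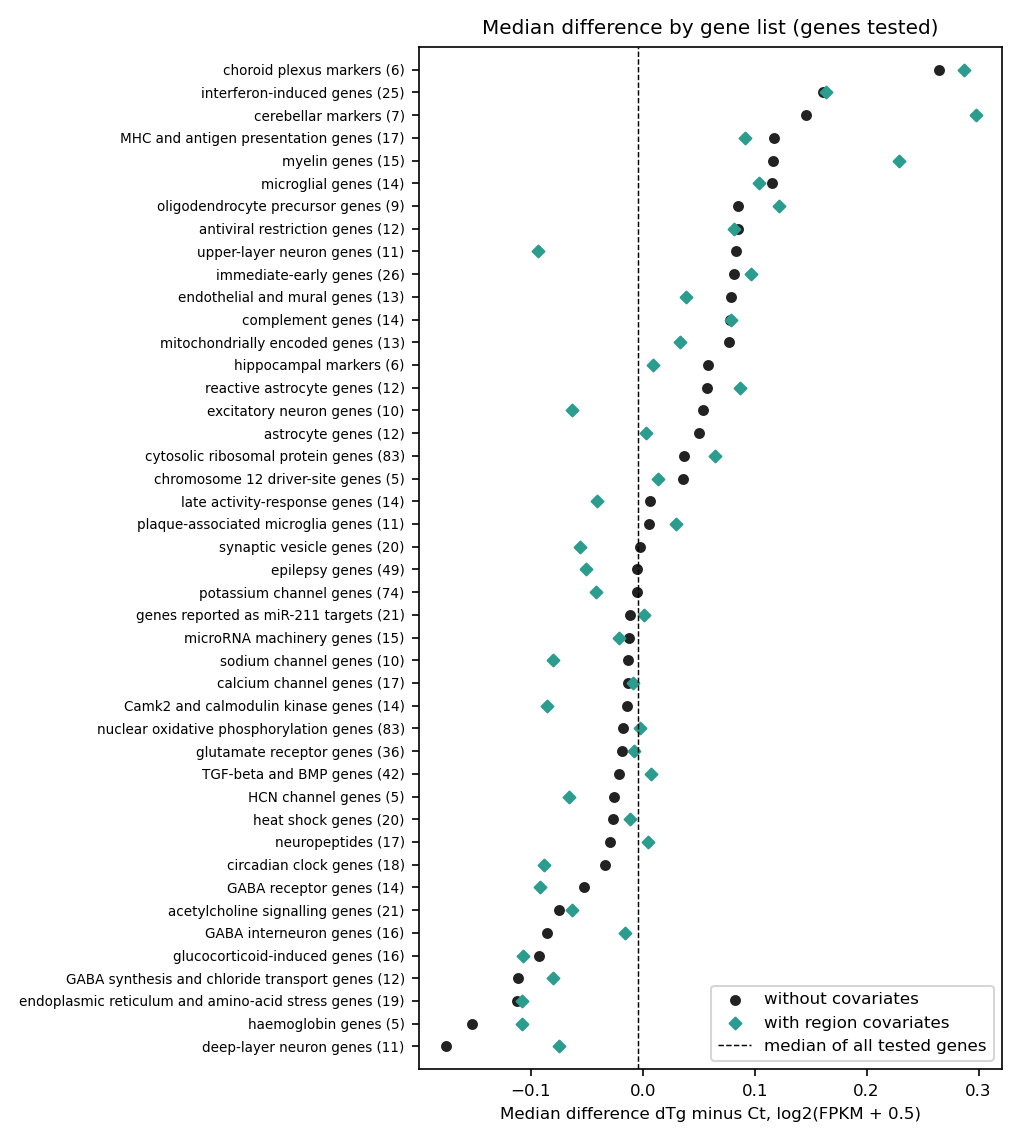
Median difference dTg minus Ct on log2(FPKM + 0.5) of 44 gene lists, without covariates (circles) and with the olfactory bulb and striatal covariates (diamonds); the number of genes tested is in brackets and the dashed line is the median of all tested genes, -0.0046. Without covariates, lists outside region markers lie between -0.18 and 0.16.

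The region covariates shifted some list medians. The median of upper-layer genes went from 0.083 to -0.094, that of sodium channel genes from -0.013 to -0.080, and that of myelin genes from 0.12 to 0.23. Those of interferon-induced genes (0.16 to 0.16), immediate-early genes (0.081 to 0.10) and stress genes (-0.11 to -0.11) moved little. In each of the 46 lists 0 genes passed over all genes tested.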

How the data were processed

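Polyadenylated RNA of frontal cortex was sequenced single-end, per the labels' protocols. The authors deposited FPKM per Ensembl gene; that unit is inferred from the values, which are not whole and, in single-exon genes, step by an amount that falls with gene length. TopHat2 and DESeq are named, per the submitters' processing notes, with no version. The build, the annotation and the counting program were not given in the sources used here. Symbols and coordinates were taken by identifier from GENCODE M21 (GRCm38) for 45225 of 46073 genes. Genes reaching 0.5 FPKM in 3 or more of 12 libraries were tested on log2(FPKM + 0.5) with limma 3.58.1 in R 4.3.3 (trend and robust empirical Bayes, two-sided), with Benjamini-Hochberg adjustment over all genes tested and a threshold of 0.05. Fold differences are on that log2 scale, which understates changes of low genes. Region content entered as covariates, the mean log2 levels of olfactory bulb and striatal markers, in a second fit. The fit was tested on simulated data. Absolute depth is unknown. The members and gene lists were chosen with earlier results of these data known. Genes described are the 12 in each direction with an informative symbol, a mean log2 value of 1 or more and the smallest p, genes with separate groups, the smallest p-values of each list, and a fixed set of genes of the study's themes; others are said to be chosen after their values were seen. Some genes that this choice names are not reported here. Alternatives covered the pseudocount, filter, scaling, covariates, weights, replicate block and each library left out; a further alternative, the libraries whose header numbers begin with 6, was added after seeing the data.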

Additional observations from a re-analysis of the deposited data

Results flagged for a closer look

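In 21 cases a library lay far from the other 5 of its group, with a gap to its neighbour, as a share of the group's range, above Dixon's critical value for 6 libraries. Of 241 groups of values examined, chance alone would set apart about 1 in 20. Each case gives the library's value and its neighbour's in FPKM, and the gap as a share of the range on log2(FPKM + 0.5). At the driver site the highest libraries were Esyt2 in Ct replicate 2 (9.99 against 5.97 FPKM, 0.783), Esyt2 in dTg replicate 7 (12.4 against 6.13 FPKM, 0.849), Ncapg2 in Ct replicate 2 (0.8874 against 0.645 FPKM, 0.629), Ncapg2 in dTg replicate 7 (1.064 against 0.508 FPKM, 0.806), Ptprn2 in Ct replicate 2 (90.3 against 49.5 FPKM, 0.705) and Ptprn2 in dTg replicate 7 (98.2 against 49.6 FPKM, 0.772). These are the same 2 libraries in each gene, and the part of the driver insertion was not tested. Elsewhere the library was the highest for C1ql2 in Ct replicate 4 (1.02 against 0.279 FPKM, 0.791), Cacna1s in dTg replicate 3 (1.17 against 0.348 FPKM, 0.897), Cldn10 in Ct replicate 5 (16.8 against 14.6 FPKM, 0.636), Exosc2 in Ct replicate 3 (12.1 against 11.3 FPKM, 0.663), Gm26244 in dTg replicate 6 (16.4 against 2.76 FPKM, 0.728), Jun in Ct replicate 1 (18 against 13.3 FPKM, 0.655), Rpusd2 in dTg replicate 5 (2.04 against 1.8 FPKM, 0.641), Sap30bp in dTg replicate 3 (23.4 against 20.5 FPKM, 0.768) and Tbx21 in dTg replicate 3 (2.06 against 0.227 FPKM, 0.81). It was the lowest for Car8 in Ct replicate 1 (2.51 against 3.24 FPKM, 0.652), Gphn in dTg replicate 4 (18.7 against 22.3 FPKM, 0.681), Gstt1 in Ct replicate 6 (7.68 against 9.99 FPKM, 0.701), mt-Nd6 in Ct replicate 1 (3809 against 4952 FPKM, 0.765), Pold2 in dTg replicate 5 (7.33 against 8.83 FPKM, 0.643) and Xaf1 in Ct replicate 2 (4.25 against 4.93 FPKM, 0.706). Tbx21 is an olfactory bulb marker, and dTg replicate 3 is the dTg library with the most olfactory bulb RNA.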

How the results depend on the processing

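Across 30 alternatives the count of genes past the adjusted threshold was 0 in 26 and 1 in 4, and the count at an unadjusted limma p under 0.05 ran from 336 to 1001. The 1 gene was Gm26244 with a pseudocount of 0.1 and without dTg replicate 6, and Gm24407 without dTg replicate 7 and without both Ct replicate 2 and dTg replicate 7. Both genes were at 0 in every Ct library and entered the test through dTg alone, so these calls rest partly on the filter. In dTg, Gm24407 was at 0 in replicate 7 only. Leaving out each replicate in turn gave 0 to 1. Of 3614 values of 121 named genes under alternatives, 79 in 32 genes changed sign, and of 1380 list medians 20 moved by over 1 SD. The cause was not tested. With dTg replicate 1 kept the values were -0.00040 for Ache, -0.042 for App, -0.11 for C1qb, -0.12 for C1qc, -0.62 for Camk2a, -0.28 for Cort, -0.066 for Cspg4, -0.48 for Emx1, 0.031 for Kcnd2, -0.55 for Lhx2, -0.35 for Ly6h, 0.0031 for Ncapg2, -0.064 for Prnp, -0.035 for Ptprn2, -0.022 for S1pr3, -0.13 for Siglech, 0.015 for Smad9 and -0.067 for Tyrobp. The olfactory bulb covariate alone gave -0.033 for Ache, -0.028 for App, -0.059 for Camk2a, 0.053 for Hcn3 and -0.018 for Prnp. The striatal covariate alone gave -0.0061 for Prnp. Both covariates gave -0.024 for Ache, -0.038 for App, -0.091 for Camk2a, -0.0041 for Emx1, 0.044 for Hcn3, -0.0030 for Neurod2 and -0.033 for Prnp. Library quality weights gave -0.026 for Ache. The replicate block gave -0.11 for Camk2a, -0.13 for Esyt2, 0.026 for Hcn3, -0.030 for Prnp, -0.12 for Ptprn2, 0.35 for Vipr2 and -0.077 for Wdr60. Leaving out both Ct replicate 2 and dTg replicate 7 gave -0.024 for Ache and -0.028 for Camk2a. Libraries with header numbers beginning with 6 only, an alternative chosen after seeing the data, gave -0.11 for Ache, -0.015 for C1ql2, -0.00088 for Eif2ak2, 0.12 for Inhba, -0.010 for Ly6h, -0.048 for Opalin, -0.023 for Tyrobp and -0.24 for Ugt8a. Over the fits without 1 replicate, the genes that changed sign ran from -0.047 to 0.072 for Ache, -0.26 to 0.028 for Adcy5, -0.014 to 0.094 for App, -0.045 to 0.13 for Camk2a, -0.44 to 0.20 for Chat, -0.14 to 0.038 for Chrna7, -0.10 to 0.21 for Esyt2, -0.41 to 0.13 for Hbb-bt, -0.16 to 0.0077 for Hcn3, -0.034 to 0.048 for Prnp, -0.080 to 0.28 for Ptprn2, -0.71 to 0.10 for Vipr2 and -0.099 to 0.19 for Wdr60. Same-numbered libraries did not deviate together (correlations of deviations -0.192 to 0.026 over 5 numbers). These deviations also hold the uneven region content of the libraries, so they cannot settle whether the numbers pair libraries. A replicate block gave 0 genes past the threshold and 439 at an unadjusted limma p under 0.05. In the chromosome 11 stretch the block gave 6 of 143 genes (4.2%) at a p under 0.01 in place of 10. Depth is estimated only relative to Ct replicate 1, so no counting error can be given for low genes.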

Other observations

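Some genes varied widely between libraries, and were picked after their values were seen. Glo1, the glyoxalase that clears methylglyoxal, had 49.7 to 79.9 FPKM (median 54.9) in Ct and 71.9 to 80.7 FPKM (median 77.4) in dTg. Pttg1, the securin of cell division, had 0.508 to 42.8 FPKM (median 24) in Ct and 18.2 to 37.8 FPKM (median 34.3) in dTg, with Ct replicate 3 at 0.508 FPKM. The chemokine gene Ccl21b had 0, 0.293 and 0 FPKM in Ct replicate 4 and dTg replicates 3 and 4, and 0 to 10.8 FPKM (median 5.38) in Ct and 0 to 8.16 FPKM (median 3.15) in dTg.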
